A study of Rattus norvegicus with 4 samples.

Results

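The genes described here encode components of the complement system: C1qa, C1qb, C1qc, C1r, C1s, C3, C4a, C4b, Cfd and Serping1. They were chosen by symbol, and each of the 10 symbols stood on 1 row of the 30560 gene rows in the deposited tables. Single cells of the fascia of the abdominal midline of rats (the labels say subcutaneous fascia) were measured in 4 libraries. All rats had dysentery induced with Salmonella. The acupuncture group (2 libraries) was then treated by acupuncture and the dysentery group (2 libraries) was not. No library came from a rat without dysentery, and strain, age and the number of animals per library were not given, so p-values reflect how far libraries of a group varied, which may be technical. Groups follow the titles. The treatment field of all 4 libraries names the other group, and each direction below would turn if that field were right.

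Complement is a cascade of plasma and tissue proteins that marks surfaces for uptake or lysis. C1q, built from the chains C1qa, C1qb and C1qc, recognises targets and carries the proteases C1r and C1s. These cleave C4 (C4a and C4b in the rat), which leads to cleavage of C3, the component where all routes meet. Cfd (factor D, or adipsin) is the protease that starts C3 cleavage on the alternative route, and Serping1 (C1 inhibitor) blocks C1r and C1s. Macrophages are a known source of C1q outside the liver, and fibroblasts of C1r, C1s and C1 inhibitor.

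Upstream windows of 7 of the 10 genes were matched by symbol in RefSeq sequence of build GRCr8, and 5 are shown because the results turn on these genes: C1qa and C1qb varied together, C3 changed against them, and C4a and C4b are near copies whose reads may be exchanged. The C1qa window is chr5:154419934-154420183 (minus strand), C1qb chr5:154407828-154408077 (minus strand) and C3 chr9:2201340-2201589 (minus strand), each the 250 bases before the annotated start. C4a is shown for chr20:4010107-4010305 (plus strand) and C4b for chr20:4201729-4201978 (plus strand). Capitals mark GGAAGT or its reverse complement (the core bound by ETS factors such as PU.1) in C1qa and C1qb, TTGCGNAA on either strand (a C/EBP-type site) in C3, and bases that differ between the copies in C4a and C4b.
C1qa: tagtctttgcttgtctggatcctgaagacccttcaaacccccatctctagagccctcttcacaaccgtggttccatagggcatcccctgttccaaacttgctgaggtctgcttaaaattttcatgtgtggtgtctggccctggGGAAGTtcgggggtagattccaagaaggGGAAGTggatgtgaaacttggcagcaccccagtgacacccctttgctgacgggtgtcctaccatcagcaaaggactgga
C1qb: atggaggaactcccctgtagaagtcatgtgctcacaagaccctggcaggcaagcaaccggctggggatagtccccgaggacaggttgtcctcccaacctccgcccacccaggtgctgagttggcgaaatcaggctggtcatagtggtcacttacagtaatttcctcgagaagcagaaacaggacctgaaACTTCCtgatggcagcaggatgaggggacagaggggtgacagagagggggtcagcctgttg
C3: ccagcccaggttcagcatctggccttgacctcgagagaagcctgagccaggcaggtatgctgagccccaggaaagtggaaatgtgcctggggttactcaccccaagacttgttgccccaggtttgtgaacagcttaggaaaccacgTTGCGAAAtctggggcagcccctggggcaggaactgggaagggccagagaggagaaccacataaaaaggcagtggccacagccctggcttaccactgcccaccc
C4a: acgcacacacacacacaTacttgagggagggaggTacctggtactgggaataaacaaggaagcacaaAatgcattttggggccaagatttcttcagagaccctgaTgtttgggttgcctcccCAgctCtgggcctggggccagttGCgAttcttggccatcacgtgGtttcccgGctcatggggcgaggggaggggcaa
C4b: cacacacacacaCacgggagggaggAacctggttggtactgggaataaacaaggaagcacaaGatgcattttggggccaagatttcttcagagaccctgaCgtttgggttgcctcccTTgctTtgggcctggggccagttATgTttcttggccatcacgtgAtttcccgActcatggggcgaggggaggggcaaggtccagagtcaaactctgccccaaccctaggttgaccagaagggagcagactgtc
Both motifs were chosen after the windows had been read. GGAAGT stood 2 times in the C1qa window and 1 time in that of C1qb, and 19.2% of 33469 upstream windows of 250 bases held it on either strand. TTGCGNAA stood 1 time in the C3 window and in 0.729% of all windows. Neither motif overlaps the other there, and a match is a description of letters only. Of 190 aligned bases before C4a and C4b, 178 (93.7%) were identical. In the RefSeq gene order, no protein-coding gene lies between C1qb, C1qc and C1qa, nor between C1r and C1s, while 12 lie between C4a and C4b.

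The acupuncture libraries held 70499776 and 93897006 UMIs (unique molecular identifiers, each counting 1 captured RNA) and the dysentery libraries 53066666 and 79461544. After filtering, 32397 of 38282 cells were kept, and pairs of libraries shared 19 to 32 cell barcodes. Dysentery replicate 1 had 16.01% of cells above the mitochondrial limit, against 5.11% to 7.17% in the others. Cells were assigned to a class (a marker gate) when they held at least 3 of 8 fixed markers and at least 2 more than of any other class. The stromal gate (fibroblast-type cells, telocytes included) held 2347 to 5308 cells per library, the macrophage gate 1138 to 2987, the T cell gate 283 to 435 and the neutrophil gate 73 to 322. Levels below are CPM, the UMIs of a gene per 1000000 UMIs of the class in that library.

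The 10 genes fell into a macrophage set and a stromal set, with C3 in both. In every library the macrophage gate held 96.0% to 99.2% of all UMIs of each C1q chain and 86.6% to 97.9% of those of Cfd. The stromal gate held 91.2% to 95.5% of C1r, 90.0% to 95.6% of C1s, 87.0% to 94.6% of C4a, 89.5% to 95.8% of C4b and 90.6% to 95.1% of Serping1. C3 was split: the stromal gate held 59.7% and 62.0% of it in the acupuncture libraries and 33.0% and 21.9% in the dysentery libraries, while the macrophage gate held 24.1% and 27.9% against 42.4% and 67.8%. The recognition chains of C1 and its proteases therefore stood in different cells of the same tissue.

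Between the macrophage and stromal gates, 67.7% of 13000 genes differed (edgeR quasi-likelihood test, Benjamini-Hochberg adjusted p under 0.05), as did 9 of the 10 members. In log2 CPM, macrophage minus stromal, C1qa stood at 8.12 (SE 0.21), C1qb at 7.80 (SE 0.21), C1qc at 8.05 (SE 0.20) and Cfd at 6.35 (SE 0.42). C1r stood at -6.32 (SE 0.17), C1s at -6.58 (SE 0.28), C4a at -6.24 (SE 0.35), C4b at -6.55 (SE 0.36) and Serping1 at -6.11 (SE 0.17). The largest adjusted p of these 9 was 2.7e-05 by edgeR. C3 did not pass, at 0.59 (SE 0.66, adjusted p = 0.46 by edgeR), and stood at -0.12 without dysentery replicate 2.

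**Figure D1:**
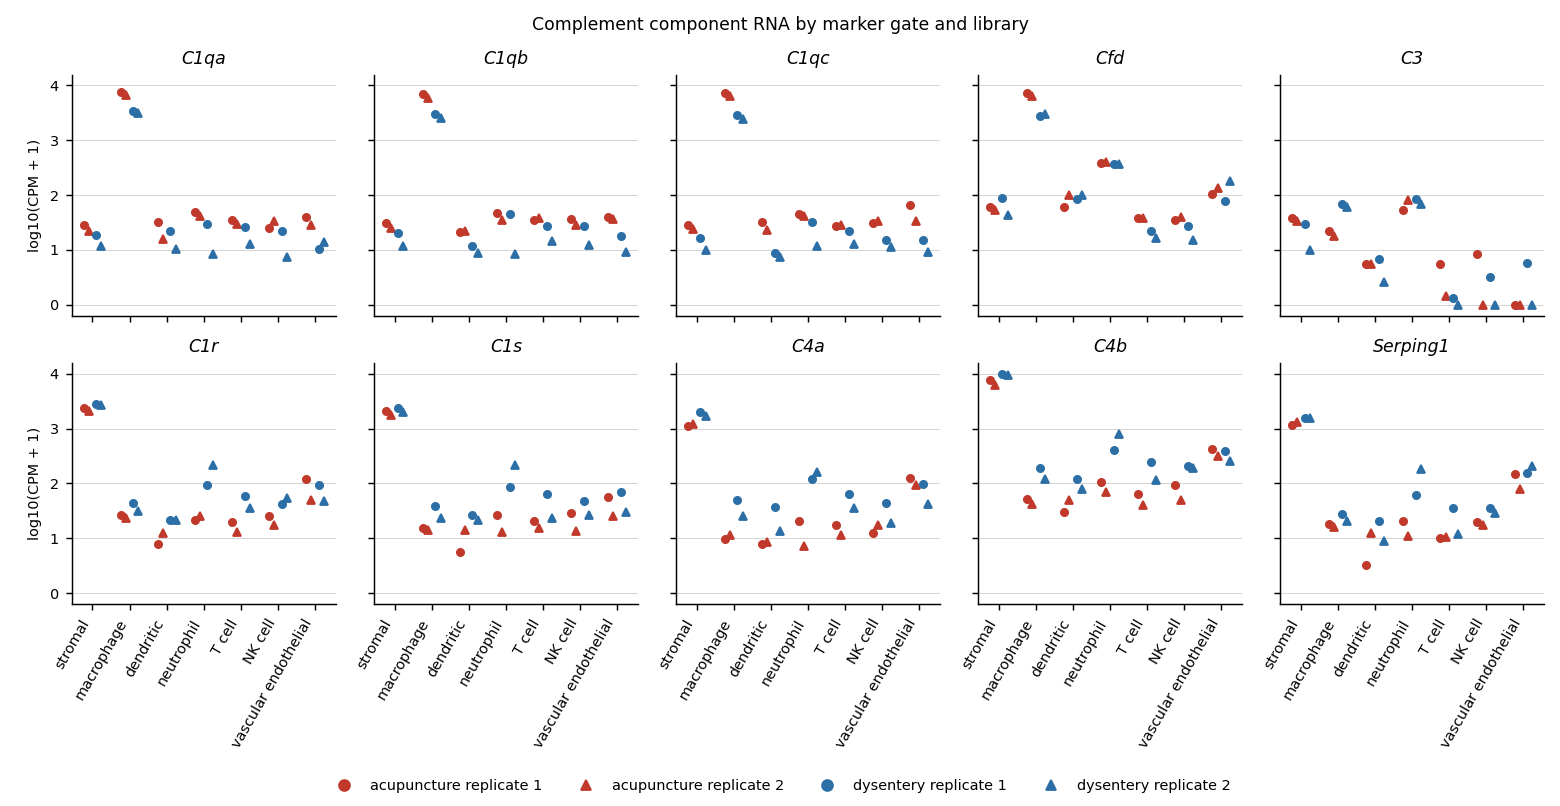
Level of each complement component, as log10(CPM + 1), in 7 marker gates (x axis). Each point is 1 library, coloured by group and shaped by replicate. C1q chains and Cfd stand high in the macrophage gate, and C1r, C1s, C4a, C4b and Serping1 in the stromal gate. C3 stands far lower, at no more than 85.2 CPM, and is highest in the stromal, macrophage and neutrophil gates.

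Free RNA, released by broken cells and captured in every droplet, was judged in T cells and neutrophils. T cells held C1qa at 11.8 to 34.5 CPM, or 0.379% to 0.714% of the macrophage level of the same library. T cells held C4b at 62.9 and 39.2 CPM in the acupuncture libraries and 246.6 and 112.3 CPM in the dysentery libraries, which is 0.628% to 2.48% of the stromal level. The macrophage gate held nearly the same C4b: 50.9 and 41.8 CPM with acupuncture and 189.8 and 118.9 CPM with dysentery. Against T cells, where 56.3% of 10245 genes differed (edgeR), the macrophage gate did not pass for C1r (log2 difference 0.23, SE 0.36), C1s (-0.25, SE 0.36), C4a (-0.33, SE 0.41), C4b (-0.02, SE 0.37) or Serping1 (0.48, SE 0.38). Likewise, the stromal gate (70.3% of genes differing from T cells) did not pass for C1qa (-0.19, SE 0.21), C1qb (-0.23, SE 0.20) or C1qc (-0.11, SE 0.20). A missed threshold does not show equal levels. Macrophage-gate cells had a median of 7833 to 10410 UMIs and stromal-gate cells 7169 to 10613, against 4749 to 5722 in T cells. A like CPM therefore stands for more UMIs per cell in these 2 gates. The part of cell size and free RNA in these values was not tested.

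C3 and Cfd stood above the T cell level in more than 1 class. T cells held C3 at 4.66 and 0.456 CPM in the acupuncture libraries and at 0.359 and 0 CPM in the dysentery libraries. C3 was higher than in T cells in the stromal gate (log2 difference 4.45, SE 0.70, adjusted p = 3.7e-06 by edgeR) and in the macrophage gate (5.05, SE 0.69, adjusted p = 7.0e-07 by edgeR). Cfd was also higher in the stromal gate (1.33, SE 0.31, adjusted p = 0.00053 by edgeR), at 42.1 to 86.7 CPM.

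Neutrophils held Cfd at 381.9 and 405.3 CPM with acupuncture and 360.9 and 375.6 CPM with dysentery. Their C3 stood at 53.2 and 79.4 CPM with acupuncture and 85.2 and 69.3 CPM with dysentery. Neutrophil Cfd was slightly higher in both acupuncture samples than in both dysentery samples, whereas C3 overlapped between groups, and neither difference was tested. Against T cells, Cfd was higher by 4.69 (SE 0.35, adjusted p = 1.5e-11 by edgeR) and C3 by 6.57 (SE 0.72, adjusted p = 1.7e-08 by edgeR) on the log2 scale. All 10 members passed in this comparison, all higher in neutrophils, as did 60.5% of all genes, with 29.5% higher. The other 8 were higher by 1.24 to 2.59. Neutrophil-gate cells had a median of 2582.5 to 3633 UMIs, against 4749 to 5722 in T cells. The part of cell size and free RNA in these other 8 was not tested.

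Neutrophil Cfd stood at 5.33% to 12.9% of the macrophage level, where the C1q chains stood at 0.234% to 1.51%. After each cell was thinned to 1000 UMIs, 24.7% to 38.3% of neutrophils held a Cfd UMI, against 1.77% to 5.03% of T cells (unthinned, 62.7% to 79.0% against 8.13% to 20.2%; 0 to 8 cells per library and gate were too shallow and left out). Exact 95% Clopper-Pearson intervals, which cover counting error only, were 15.3% to 36.1% for the lowest neutrophil share and 2.90% to 8.04% for the highest T cell share. Vascular endothelial cells held Serping1 at 146.4 and 76.8 CPM with acupuncture and 153.2 and 210.7 CPM with dysentery. That was above T cells by 3.04 on the log2 scale (SE 0.40, adjusted p = 4.9e-07 by edgeR, with 53.7% of genes differing). Endothelium passed for 5 of 10 members in all, the others being Cfd (2.07, SE 0.33), C4b (1.85, SE 0.39), C4a (1.77, SE 0.44) and C1r (1.31, SE 0.39). C1r was lost without acupuncture replicate 1 (0.76, adjusted p = 0.13 by edgeR). Endothelial C4b stood at 2.67% to 5.55% of the stromal level, C4a at 2.43% to 11.2% and C1r at 1.74% to 5.16%. Endothelial cells had a median of 2758 to 6792 UMIs, and the part of cell size and free RNA was not tested. Natural killer cells (12.5% of genes differing from T cells) passed for 0 of 10 members by edgeR, with 0 at an unadjusted p under 0.05. Dendritic cells (41.8%) passed for Cfd, at 1.88 (SE 0.33), and for C1qb, at -0.73 (SE 0.25), a call lost without either acupuncture library or without dysentery replicate 1.

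**Figure D2:**
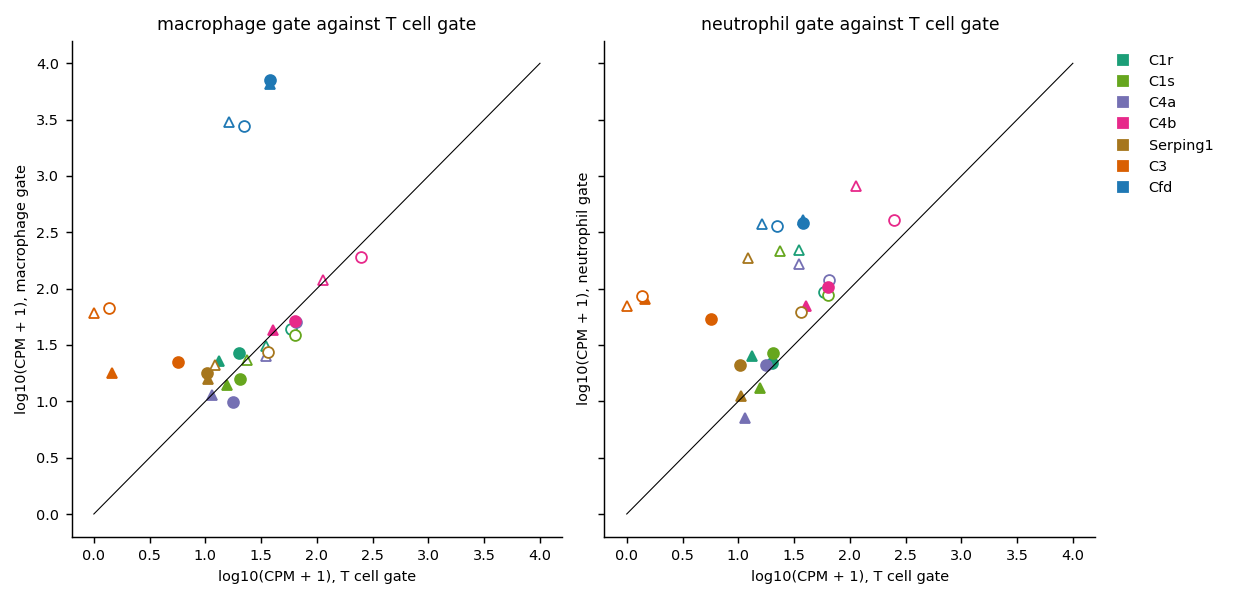
Level of 7 members in the macrophage gate (left) and the neutrophil gate (right) against the T cell gate of the same library, as log10(CPM + 1); the line marks equal levels. Filled points are acupuncture and open points dysentery libraries, circles replicate 1 and triangles replicate 2. In macrophages C1r, C1s, C4a, C4b and Serping1 lie near the line and C3 and Cfd above it.

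C4a and C4b encode near-identical forms of C4, and C4a was the lower of the 2 in stroma. The stromal gate held 14.4 and 19.5 C4a UMIs per 100 C4b UMIs with acupuncture and 20.3 and 17.3 with dysentery. Epithelial-gate cells held 72.7 and 126.0 with acupuncture and 76.3 and 85.1 with dysentery, with C4a at 461.3 to 1280.9 CPM. These were few: 65 and 37 cells with acupuncture and 90 and 12 with dysentery. C4a thus took a greater part of C4 RNA in all 4 epithelial samples than in any stromal sample. The counting can move reads between these copies, so each of the 2 levels is uncertain.

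In macrophage-gate cells, C1q and Cfd RNA were higher in the acupuncture libraries and C3 was lower. The C1qa level was 7614 and 6800 CPM with acupuncture and 3471 and 3119 CPM with dysentery. C1qb stood at 7067 and 5897 CPM against 2964 and 2527 CPM. C1qc stood at 7373 and 6444 CPM against 2945 and 2477 CPM. The groups did not overlap for any C1q chain, as for all 10 members and for 64.0% of genes tested. The log2 difference, acupuncture minus dysentery, was 1.18 for C1qa (SE 0.13, adjusted p = 0.012 by edgeR), 1.29 for C1qb (SE 0.15, adjusted p = 0.014 by edgeR) and 1.40 for C1qc (SE 0.14, adjusted p = 0.012 by edgeR).

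Cfd moved like C1q: it stood at 7169 and 6523 CPM with acupuncture and 2789 and 3014 CPM with dysentery, a log2 difference of 1.28 (SE 0.13, adjusted p = 0.012 by edgeR). Adipocytes are the classic source of Cfd. Their 8 markers (Adipoq, Plin1 and others) summed to 1.37 to 4.16 CPM in the macrophage gate and 4.38 to 19.5 CPM in the stromal gate. The part of adipocyte RNA in Cfd was not tested. C3 went the other way, at 21.3 and 16.7 CPM with acupuncture and 66.7 and 59.3 CPM with dysentery. Its log2 difference was -1.69 (SE 0.15, adjusted p = 0.0096 by edgeR). C4a (-1.88, SE 0.33, adjusted p = 0.028) and C4b (-1.68, SE 0.23, adjusted p = 0.018) were also lower by edgeR. T cells of the same library held 102% to 190% of the macrophage C4a level and 93.8% to 130% of the C4b level. With doublets kept, C4a (-0.85) and C4b (-0.50) did not pass. C1s (-1.07, adjusted p = 0.053), C1r (-0.55, adjusted p = 0.11) and Serping1 (-0.50, adjusted p = 0.11) did not pass by edgeR.

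So 7 of 10 members passed in macrophage-gate cells, 4 higher and 3 lower, where 12.5% of 12033 genes passed, 8.0% higher and 4.55% lower. The members' median log2 difference was -0.52 and that of all genes -0.01. Genes that did not pass against T cells in this gate enter both summaries: C4a and C4b are among the lower calls. The median also takes in C1r, C1s and Serping1, and the part of free RNA in these values was not tested. With 2 libraries a group these calls were fragile: without acupuncture replicate 1, 0 genes passed (2633 at an unadjusted p under 0.05 by edgeR). Without acupuncture replicate 2, 80 genes passed, C3 alone among the members (-1.51, adjusted p = 0.049 by edgeR). No direction of these 7 turned when any library was left out.

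The cells in the macrophage gate were not alike in both groups. Cd163, a receptor of resident macrophages, had a UMI in 75.5% and 73.3% of gate cells with acupuncture and in 30.8% and 28.5% with dysentery. Ccr2, a receptor of monocytes and the cells that arise from them, had a UMI in 21.6% and 27.2% against 54.1% and 68.5%. The median cell held 206 and 209 C1q UMIs (all chains) with acupuncture and 22 and 5 with dysentery. Thinned to 1000 UMIs, 79.4% and 76.6% of gate cells held all C1q chains with acupuncture and 47.7% and 38.8% with dysentery, against at most 0.314% of T cells in any library (unthinned, 82.8%, 80.7%, 53.3% and 47.2% of gate cells and at most 2.19% of T cells). The gate made up 29.5% and 34.9% of kept cells with acupuncture and 18.03% and 23.8% with dysentery.

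Within gate cells that held a Cd163 UMI (1716, 2189, 351 and 667 cells), C1q and Cfd overlapped between the groups and did not pass. C1qa stood at 10088 and 8751 CPM with acupuncture and 8784 and 9791 CPM with dysentery. Cfd stood at 9608 and 8540 CPM against 8431 and 10989 CPM. Both overlapped, as did C1qb and C1qc. The log2 differences were 0.18 for C1qa (SE 0.13), 0.23 for C1qb (SE 0.14), 0.32 for C1qc (SE 0.13) and 0.07 for Cfd (SE 0.15), with adjusted p = 0.43, 0.36, 0.19 and 0.83 by edgeR. With no low-count filter C1qc passed there (0.35, adjusted p = 0.024 by edgeR). Gate cells without a Cd163 UMI held far less of each: C1qa at 1432 and 1617 CPM with acupuncture and 1543 and 1206 CPM with dysentery, and Cfd at 1075 and 1164 CPM against 743.0 and 727.4 CPM. There the log2 difference was 0.64 for Cfd (SE 0.13, adjusted p = 0.088 by edgeR) and 0.18 to 0.39 for the C1q chains. In gate cells with a Ccr2 UMI it was 0.36 for C1qa, 0.52 for C1qb, 0.62 for C1qc and 0.22 for Cfd (adjusted p from 0.11 to 0.49 by edgeR). None of these passed.

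C3, in contrast, differed within Cd163 cells as well. It stood at 19.4 and 14.7 CPM with acupuncture and 94.5 and 104.3 CPM with dysentery, with no overlap, as for 59.4% of genes. The log2 difference was -2.39 (SE 0.16, adjusted p = 0.00034 by edgeR). It lay between -2.59 and -2.20 and passed whichever library was left out. In cells without a Cd163 UMI C3 stood at 26.0 and 21.8 CPM against 56.6 and 46.4 CPM, a log2 difference of -1.07 that did not pass (adjusted p = 0.054 by edgeR). In gate cells with a Ccr2 UMI it stood at 20.2 and 21.6 CPM against 42.7 and 40.9 CPM and passed (-0.97, adjusted p = 0.012 by edgeR).

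Among Cd163 cells 6 of 10 members passed, all lower with acupuncture, where 7.92% of 11042 genes passed and 2.62% were lower. Besides C3 these were C4a (-2.49, SE 0.30), C4b (-1.97, SE 0.15), C1s (-1.12, SE 0.16), Serping1 (-0.78, SE 0.15) and C1r (-0.73, SE 0.15). C4b stood at 52.0 and 43.7 CPM with acupuncture and 230.2 and 188.7 CPM with dysentery, beside 62.9, 39.2, 246.6 and 112.3 CPM in T cells of the same libraries. C3 stood at no more than 4.66 CPM in T cells. The part of free RNA in these 6 was not tested within Cd163 cells. C1r and Serping1 did not pass without either dysentery library, nor Serping1 without acupuncture replicate 2.

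**Figure D3:**
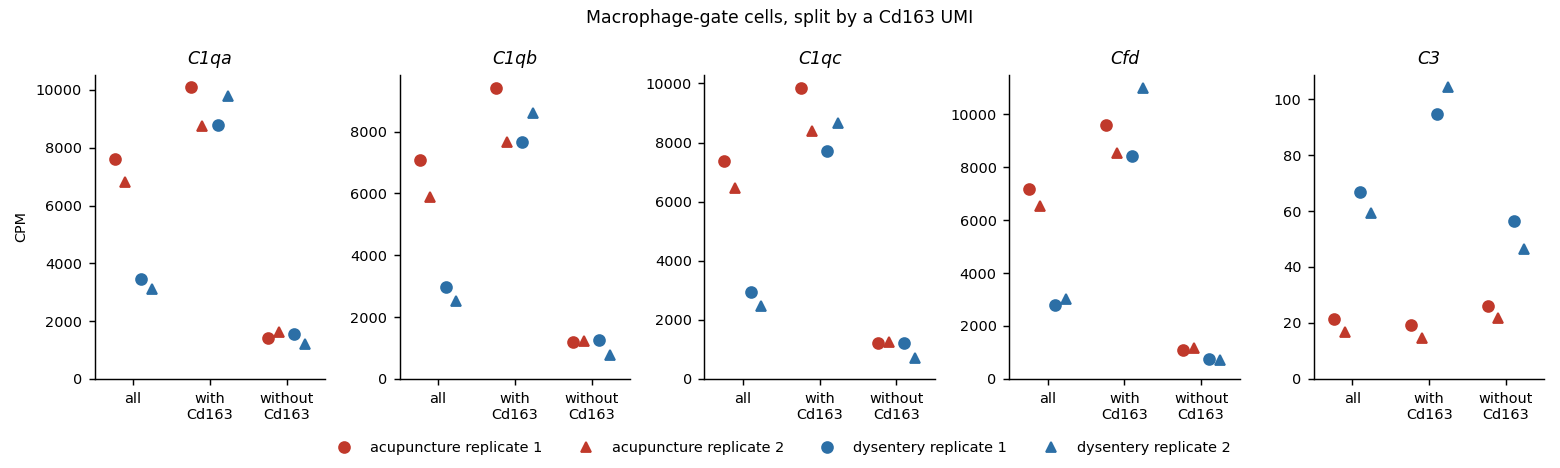
CPM of the C1q chains, Cfd and C3 (y axes from 0, with different ranges) in all macrophage-gate cells and in those with or without a Cd163 UMI. Each point is 1 library. C1q and Cfd separate the groups over all gate cells and overlap in cells with Cd163, whereas C3 is higher in both dysentery libraries in each set.

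Genes that tissue digestion is known to induce (Fos, Jun and others) were higher in the acupuncture libraries beside these results. By edgeR, 8 of 10 tested passed higher in macrophage-gate cells, 10 of 10 in Cd163 cells and 9 of 10 in the stromal gate. Their summed level in the macrophage gate was 24072 and 25317 CPM with acupuncture and 10147 and 6085 CPM with dysentery. Its part in the changes of the members was not tested.

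In stromal-gate cells the classical-route genes stood at high levels in both groups and 0 of 10 members passed, where 2.91% of 13142 genes did (edgeR). C4b stood at 7667 and 6247 CPM with acupuncture and 9947 and 9645 CPM with dysentery. Its log2 difference was -0.49 (SE 0.18, adjusted p = 0.20 by edgeR). C4a stood at 1106 and 1217 CPM against 2018 and 1669 CPM (-0.65, SE 0.17, adjusted p = 0.11 by edgeR).

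The proteases and their inhibitor differed less. C1r stood at 2323 and 2097 CPM with acupuncture and 2762 and 2699 CPM with dysentery (-0.30, SE 0.14, adjusted p = 0.29 by edgeR). C1s stood at 2066 and 1770 CPM against 2324 and 2000 CPM, overlapping between groups (-0.17, SE 0.15, adjusted p = 0.56 by edgeR). Serping1 stood at 1173 and 1329 CPM against 1573 and 1535 CPM (-0.30, SE 0.16, adjusted p = 0.36 by edgeR). C3 was low, at 36.7 and 32.7 CPM against 28.3 and 8.94 CPM (0.94, SE 0.46, adjusted p = 0.30 by edgeR), with dysentery replicate 2 the lowest. Cfd stood at 60.5 and 52.2 CPM against 86.7 and 42.1 CPM, overlapping between groups (-0.17, SE 0.29, adjusted p = 0.78 by edgeR). Without dysentery replicate 1, C3 stood at 1.92 and the 3 C1q chains at 1.14 to 1.45.

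At 5 values unadjusted p was under 0.05 (C1qa, C1qb, C1qc, C4a and C4b), as for 2703 of 13142 genes by edgeR. DESeq2 called those 5, C1q higher and C4 lower, among 859 of 13142 genes. C1q in this gate did not pass against T cells, and the part of free RNA in it was not tested. The stromal groups did not overlap for 8 of 10 members, as for 49.4% of all genes. In stromal-gate cells that held UMIs of Cd34 and Pdgfra, the surface markers by which the study defines telocytes, 0 of 10 members passed. By edgeR, 3.67% of 12032 genes did. There 5 members had an unadjusted p under 0.05, as did 2365 of 12032 genes. DESeq2 called C1qc, C4a and C4b, among 631 of 12032 genes. With no low-count filter C1qa, C1qb, C1qc, C3 and C4a passed there by edgeR, as did 1431 of 17591 genes. Without dysentery replicate 1 the 3 C1q chains stood at 1.20 to 1.49 and C3 at 1.92. C3 stood at 0.89 with all libraries and at 0.22 without dysentery replicate 2. Their C4b was 6667 ± 982 CPM (SD, n = 2) with acupuncture and 9178 ± 132 CPM (SD, n = 2) with dysentery.

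**Figure D4:**
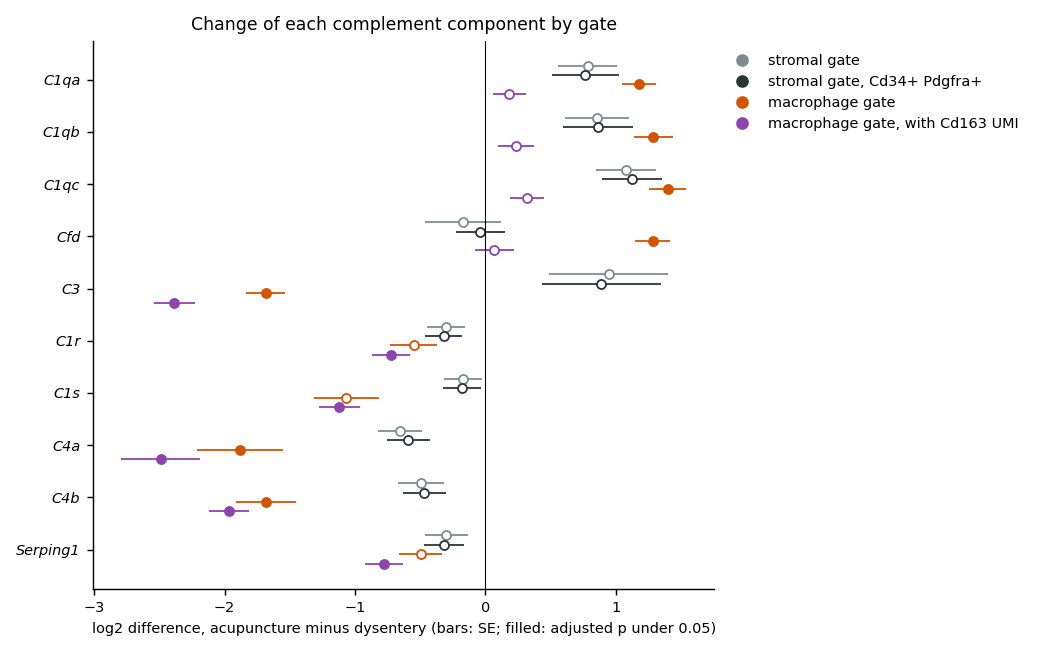
Log2 difference, acupuncture minus dysentery (x axis, bars are the SE), of each member in 4 sets of cells; filled points have an adjusted p under 0.05. No stromal point is filled; the C1q chains and Cfd are filled in the macrophage gate and open in cells with a Cd163 UMI, and C3 is filled in both macrophage sets.

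The change itself differed between macrophage-gate and stromal-gate cells for 1 of 10 members, C3, where 3.87% of 13841 genes passed. Its macrophage change was lower than its stromal change by a log2 difference of -2.82 (SE 0.44, adjusted p = 0.020 by edgeR). Without acupuncture replicate 1 or 2 no gene passed, and C3 stood at -2.98 and -2.65 (adjusted p = 0.27 and 0.35 by edgeR). For Cfd the difference in change was 1.38 (SE 0.37, adjusted p = 0.095 by edgeR). For the C1q chains it was 0.29 to 0.38 (adjusted p from 0.49 to 0.61 by edgeR), with C1q of the stromal gate not passing against T cells.

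Some members, but not all, had other members of their set among their nearest genes. Over 28 sums (7 classes in 4 libraries, which share libraries and classes), each C1q chain had the other chains as its nearest genes among 7810, with Pearson r of log2(CPM + 1) of 0.99, followed by Trem2, Ltc4s and Fcna. C1r was nearest to C4b, C1s and Gsn, C4a to AABR07044388.2, C4b and Gpx3, and C4b to AABR07044388.2, C1r and Igfbp5. Serping1 was nearest to Mxra8, Apcdd1 and C4b. C1s was nearest to Gsn, Cd248 and Aebp1, with no member among them. Cfd was nearest to Ninj1 (r = 0.94), Tf (transferrin) and Cd209f, a lectin of resident macrophages. Like C1s and Cfd, C3 had no member among its nearest genes, and its values were lower: Emilin2 (r = 0.89), Dynlt1 and Prg4. Within macrophage-gate cells, which share library and depth, C1qa and C1qb had r of 0.96 to 0.97 in each library, C1qa and Cfd 0.62 to 0.90, and C1qa and C3 -0.09 to 0.19.

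Of 47 other complement genes listed, 41 had a row. In the macrophage gate 6 of 25 tested were higher and 1 lower with acupuncture, where 8.0% of all genes were higher and 4.55% lower. The median log2 difference of the 25 was -0.0078 against -0.012 for all genes. Fcna (ficolin A, a recognition molecule of the lectin route) stood at 3032 ± 191 CPM (SD, n = 2) with acupuncture and 854 ± 34.1 CPM (SD, n = 2) with dysentery, a log2 difference of 1.87. Colec12 (a scavenger collectin) was higher by 1.67, C6 (a part of the membrane attack complex) by 2.49, Cfb (factor B) by 1.15 and C3ar1 (a receptor for a C3 fragment) by 0.68. Ptx3 was at 1.05 CPM against 0 CPM (16 and 42 UMIs with acupuncture, 0 in each dysentery library). It passed the low-count filter only through the acupuncture group, so its call among the 6 adds no support. The stromal gate held Ptx3 at 133 CPM and 2.17 CPM, and the part of free RNA in macrophage-gate Ptx3 was not tested. Itgb2 (a chain of C3 fragment receptors) was lower, at -0.51.

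Within Cd163 cells, 2 of 23 passed higher, C6 (1.32, adjusted p = 0.0011 by edgeR) and Fcna (0.64, adjusted p = 0.033 by edgeR). Of all 11042 genes tested there, 585 passed higher and 2.62% passed lower. Cd93, a receptor once proposed to bind C1q, was lower (-1.80, adjusted p = 0.0044 by edgeR). Cfb (0.15) and Colec12 (0.40) did not pass there. C3ar1 had the opposite sign without passing, at 93.5 CPM with acupuncture and 122 CPM with dysentery (-0.23, adjusted p = 0.27 by edgeR), with no overlap. In the stromal gate 2 of 23 passed, both higher, where 2.91% of all genes passed. The median was -0.13 against -0.003 for all genes. Ptx3 (a pentraxin that binds C1q) stood at 133 ± 64.5 CPM with acupuncture and 2.17 ± 0.237 CPM with dysentery (SD, n = 2 each). Fcna was higher by 1.41 at 11.5 CPM against 4.43 CPM, with macrophages holding far more of it.

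Other complement genes at high levels in stroma were Colec11 (1582 to 1950 CPM), a collectin of the lectin route, and Cfb (855 to 1261 CPM). Colec11 also stood at 1197 to 1774 CPM in the macrophage gate. Calr (calreticulin, which binds C1q on cell surfaces) stood at 775 to 897 CPM in stroma, and Cfp (properdin, which steadies the C3 convertase) at 473 to 980 CPM in the macrophage gate. Lrp1, Cd59, Cd55, Cr1l, C1qbp and Itgam were also among the most abundant, and none of these 9 genes, Colec11 and Calr included, passed the test in either gate.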

How the data were processed

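Droplet 3' single-cell libraries were made from 4 samples of digested, dead-cell-depleted fascia, per the labels' protocols. Per the submitters' processing notes, the tools were Cell Ranger 6.0.1 and STAR, with builds mRatBN7.2 and GRCh38.p13 named without a role; all identifiers were of the rat. UMI counts per gene and cell were deposited by the authors without normalization, beside deposited lists of other content (cell barcodes and gene names).

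Cells were kept from 300 detected genes and 500 UMIs upwards if mitochondrial UMIs made up no more than 20%, and the highest Scrublet scores (scanpy 1.11.5) were removed at 0.8% per 1000 cells. Cells were gated by markers with no complement gene among them (83 of 88 markers had a row). UMI counts were summed per library and gate and tested with edgeR 4.0.16 (quasi-likelihood, TMM scaling, filterByExpr at a minimum count of 10, R 4.3.3). P-values were Benjamini-Hochberg adjusted over all genes tested, at a threshold of 0.05. The library was the replicate. Fits between gates, those against T cells included, used library as a block. The fits against T cells were added after the data were seen, as were the results within Cd163 cells. DESeq2 1.42.0 was an alternative. The script was tested on simulated data. Named genes were the 10 members, other complement genes that passed or were among the 10 most abundant, and the 3 nearest genes to each member; 1 complement gene is not reported here. The members, the lists, the markers and these rules were chosen with earlier results of these data known. Upstream sequence came from RefSeq (GRCr8), a different build from that of the counts, so no gene coordinates were joined to the counts.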

Additional observations from a re-analysis of the deposited data

Results flagged for a closer look

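The change with acupuncture differed between macrophage-gate and stromal-gate cells, by the interaction term in edgeR, for 1 member and 3 other complement genes. As macrophage change minus stromal change on the log2 scale, the values were -2.82 for C3 (adjusted p = 0.020), 1.76 for Colec12 (adjusted p = 0.0068), 1.56 for Cfb (adjusted p = 0.022) and -1.22 for Cd93 (adjusted p = 0.036), all by edgeR. Cd93 was chosen after its values were seen. Without either acupuncture library 0 genes passed this test. The macrophage gate held more Cd163 cells with acupuncture, and within Cd163 cells Cfb stood at 0.15 and Colec12 at 0.40, neither past the threshold, while C3 (-2.39, adjusted p = 0.00034 by edgeR) and Cd93 (-1.80, adjusted p = 0.0044 by edgeR) passed.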

How the results depend on the processing

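All counts are of genes passing edgeR unless DESeq2 is named, and the cause of each shift was not tested. In the stromal gate 382 genes passed; the count was 1054 with no low-count filter, 859 with DESeq2, 532 with the replicate number as a block, 114 without Has1 cells and 81 to 663 with a library left out. In Cd34+ Pdgfra+ cells (441) it was 1431 with no filter, 744 with the replicate block and 190 to 503 with a library left out. In the macrophage gate (1510) it was 2895 with no filter, 1048 with the replicate block, 27 without Ccr2 cells, 874 in Cd163 cells only, 0 to 2245 with a library left out and, added after seeing the data, 697 in Ccr2 cells only and 127 without Cd163 cells. In Cd163 cells (874) it was 1808 with no filter, 837 with the replicate block and 273 to 1165 with a library left out. For the difference in change (536) it was 976 with no filter, 333 with doublets kept and 0 to 1631 with a library left out. For natural killer against T cells (1276) it was 739 to 955 with a library left out. Same-numbered libraries correlated at 0.09 (stromal), 0.17 (Cd34+ Pdgfra+) and 0.11 (macrophage) over 2 pairs, too few to pair them, and no label names a shared source; with the block C1qc passed in stroma (in Cd34+ Pdgfra+ cells too) and C1s in macrophages, and no other call of a member changed. Thinning to 2000 UMIs, or none, moved 152 group means of the share of cells with a UMI by more than 1 SD and 24 by less.

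Signs turned for values that did not pass in either fit. With a library left out, Cfd lay between -0.58 and 0.39 in stroma, -0.32 and 0.28 in Cd34+ Pdgfra+ cells and -0.10 and 0.27 in Cd163 cells. C3 in macrophages minus stroma lay between -0.12 and 1.18, and the difference in change of Serping1 between -0.44 and 0.075. Against T cells, C4b in macrophages lay between -0.10 and 0.13. In natural killer cells C1r lay between -0.12 and 0.45, C1s between -0.21 and 0.084 and Cfd between -0.20 and 0.043. In endothelium C1qc lay between -0.42 and 0.34 and C3 between -6.86 and 1.54. With doublets kept, C1r in macrophages stood at 0.0026, and the difference in change at 0.30 for C1r, 0.058 for C1s and 0.22 for Serping1. Where a group had 1 library left, its spread was assumed to be that of the other group.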

Other observations

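Mural-gate cells (smooth muscle and pericytes) were too few to be tested: 19 and 14 with acupuncture and 3 and 5 with dysentery. They held Serping1 at 157.3 and 306.5 CPM with acupuncture and 576.8 and 622.9 CPM with dysentery. The epithelial gate, also untested and with 12 to 90 cells per library, held C4b at 635.0 and 730.2 CPM with acupuncture and 1284.2 and 1505.6 CPM with dysentery.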
